A study of Triticum aestivum with 18 samples.

Results

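On the Affymetrix wheat array, 59 probe sets carry identifiers of the form TaAffx.128414.215.S1_s_at, with the same first number and a second number that runs through the series. The platform annotation pairs 24 of them with the gene symbol LOC100049018, for which the RefSeq gene table (IWGSC CS RefSeq v2.1) lists the synonym rbcl, and these 24 were left out as rbcL probe sets. The other 35, of 61290 probe sets in the table, are described here. The annotation gives a gene to 0 of the 35, so it states nothing about what they measure. All that ties them to the rbcL probe sets is the shared first number, and they are called neither plastid nor nuclear genes here. Each is written below by the end of its identifier, which for the example is 215.S1_s_at.

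The samples were leaves of 2 near-isogenic lines of bread wheat, TXGBE273, which resists the greenbug aphid, and TXGBE281, which is susceptible. Plants at the 3-leaf stage in a greenhouse were infested with greenbug biotype E and sampled at 0 h, 24 h and 48 h, with 3 arrays in each of the 6 line and time groups. The labels mark both 0 h groups as controls and do not name the allele that separates the lines. Uninfested plants of the later times were not analysed here, so infestation, plant age and time of sampling cannot be told apart in any difference from 0 h. Whether the replicates are separate plants is not stated in the labels, so a p-value here reflects only the variation among arrays, which may be technical.

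The gene rbcL encodes the large subunit of Rubisco, the enzyme that fixes CO2 in the Calvin cycle, and in plants it lies in the chloroplast genome. Chloroplast genes are transcribed inside the organelle, whereas most proteins of photosynthesis are encoded in the nucleus and imported. The greenbug feeds on phloem sap and leaves chlorotic spots on susceptible cereals. On Affymetrix arrays, an identifier that ends in _x_at marks a probe set with probes that can also match other sequences, and _s_at marks probes shared by several related transcripts.

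The series numbers of the 35 probe sets run from 4 to 219. By suffix, 24 end in _at, 9 in _x_at and 2 in _s_at, and 34 carry the letter S before the last number, the exception being 24.A1_s_at with an A. The numbers 54, 147 and 201 occur in 2 probe sets each, so 6 of the 35 share a number with another. Such pairs may read the same sequence, so they are not independent measurements.

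Signals were the deposited MAS5 intensities on a linear scale, on which every array had the same trimmed mean of 500.1. A signal also depends on the probes, so no order of abundance is drawn between probe sets. Over all 18 arrays, 5 of the 35 had a mean signal above 10000: 60.S1_x_at, 176.S1_x_at, 205.S1_x_at, 215.S1_s_at and 219.S1_x_at. All 5 have a suffix that marks shared or cross-matching probes. A further 3, 18.S1_at, 102.S1_at and 152.S1_at, had means between 1000 and 10000, and all 3 end in the plain _at. The remaining 27 had means under 1000.

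A probe set was tested where it exceeded its array's own 40th percentile of signal on at least 3 arrays. This kept 27 of the 35 and 46251 of all probe sets. Of the 27, 11 exceeded the percentile on all 18 arrays, 9 on 10 to 17 arrays and 7 on 3 to 9. For 8 of the 27, the arrays above the percentile lay in fewer than 6 groups, so a member of that kind could pass through the group where it was high. The 8 that were not tested were 8.S1_at, 39.S1_at, 41.S1_at, 54.S1_at, 54.S1_x_at, 55.S1_at, 150.S1_at and 201.S1_x_at. Their signals lay between 0.557 and 82.8. The 5 with the lowest mean on the log2 scale were among them: 54.S1_at, with signals from 0.557 to 42.7, 54.S1_x_at, from 0.768 to 27.2, 39.S1_at, from 3.22 to 35.8, 55.S1_at, from 2.95 to 63.5, and 41.S1_at, from 2.85 to 70.2.

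Differences were taken on log2(signal + 16) from a limma fit of the 6 groups, with p-values adjusted by the Benjamini-Hochberg method over all probe sets tested, and called at an adjusted p under 0.05. At 24 h in TXGBE273, 1 of the 27 was called higher than at 0 h and 8 lower, against 17.6% and 14.5% of all probe sets tested. At 48 h it was again 1 higher and 8 lower, against 17.4% and 16.3%. For TXGBE281 the count at 24 h was 2 higher and 8 lower, against 17.1% and 16.3%. At 48 h, 2 were higher and 7 lower, against 17.8% and 19.1%. In either direction the shares called were 33.3%, 33.3%, 37.0% and 33.3%, against 32.2%, 33.7%, 33.4% and 36.9% of all probe sets, so the total called was near the background in all 4 comparisons.

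The median log2 change of the 27 was -0.42 at 24 h and -0.54 at 48 h in TXGBE273, and -0.45 and -0.57 in TXGBE281. Over all probe sets tested the corresponding medians were -0.018, -0.0623, -0.0666 and -0.0768. Without the filter, over all 35, the counts stayed at 1 higher and 8 lower, 1 and 8, 2 and 8, and 2 and 7. Of all 61179 probe sets in that fit, 12.7%, 12.7%, 12.5% and 13.1% were called higher and 10.9%, 12.4%, 12.1% and 14.3% lower. The 3 arrays of the later time did not overlap those of 0 h for 10, 12, 12 and 12 of the 27, against 43.3%, 43.5%, 43.6% and 48.3% of all probe sets tested. Both later times of a line were set against the same 0 h arrays.

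The calls were concentrated among the brighter probe sets. All 8 with a mean signal above 1000 were called against 0 h in both lines at both times: 7 were lower each time (9.21% of all probe sets tested were lower in all 4 comparisons) and 1, 18.S1_at, was higher each time (9.44%). Of the 19 dimmer ones that were tested, 1, 1, 2 and 1 were called in the same 4 comparisons, and they were 137.S1_at and 24.A1_s_at. The standard error of a log2 change was 0.087 to 0.23 among the 8 brighter ones and 0.28 to 0.76, with a median of 0.49, among the 19 dimmer ones. A change of the size seen in the brighter ones was often not detectable in the dimmer ones at that error.

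The fall of 215.S1_s_at was the largest of the 27 at 24 h in both lines and at 48 h in TXGBE281, but at 48 h in TXGBE273 its log2 change of -1.24 was smaller in size than those of 137.S1_at, at -1.34, and 149.S1_at, at -1.39 and not called. In TXGBE273 its signal was 48581, 51207 and 50623 at 0 h, 13090, 17373 and 17022 at 24 h, and 18012, 22402 and 23504 at 48 h. In TXGBE281 it was 51591, 43531 and 49166 at 0 h, 8041, 12793 and 7752 at 24 h, and 13364, 8543 and 9160 at 48 h. Every infested array was below every 0 h array, and at both later times all 3 susceptible arrays were below all 3 resistant ones.

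The group means of 215.S1_s_at were 50137 ± 1379 (SD, n = 3), 15828 ± 2378 and 21306 ± 2906 in TXGBE273 at 0 h, 24 h and 48 h. In TXGBE281 they were 48096 ± 4135, 9529 ± 2831 and 10356 ± 2624. In TXGBE273 the log2 change from 0 h was -1.67 ± 0.18 (SE; limma adjusted p = 3.07e-07) at 24 h and -1.24 (adjusted p = 1.13e-05) at 48 h. It was -2.37 (adjusted p = 1.99e-09) and -2.24 (adjusted p = 2.63e-09) in TXGBE281. These sizes correspond to a signal 3.19-fold and 2.37-fold lower in TXGBE273 and 5.17-fold and 4.72-fold lower in TXGBE281.

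The 4 other probe sets with means above 10000 also fell on the deposited scale, by smaller amounts, and the call of 219.S1_x_at was lost under quantile normalization. For 176.S1_x_at the resistant arrays read 37724, 37370 and 39482 at 0 h, 19485, 21278 and 20004 at 24 h, and 17623, 18990 and 16305 at 48 h. The susceptible arrays read 35277, 33277 and 32366 at 0 h, 15731, 14817 and 11554 at 24 h, and 16838, 17630 and 17854 at 48 h. The infested arrays lay below the 0 h arrays in both lines, with no overlap. Its log2 changes were -0.91 and -1.12 in TXGBE273 and -1.27 and -0.95 in TXGBE281, each with an SE of 0.10.

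For 60.S1_x_at the resistant arrays read 19225, 19375 and 19973 at 0 h, 11004, 10903 and 10088 at 24 h, and 11071.5, 10868 and 10449 at 48 h. The susceptible arrays read 20798, 16738 and 17527 at 0 h, 9412, 7924 and 7373 at 24 h, and 9997, 7308 and 8869 at 48 h. Both infested groups were below 0 h in each line and close to each other. The log2 changes were -0.87 and -0.85 in TXGBE273 and -1.16 and -1.08 in TXGBE281 (SE 0.11).

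For 205.S1_x_at the resistant arrays read 44666, 41913 and 47273 at 0 h, 28458, 26675 and 25905.5 at 24 h, and 28778, 28411 and 27631 at 48 h. The susceptible arrays read 47003, 40906 and 41570.5 at 0 h, 23845, 22003 and 22509 at 24 h, and 25473, 21471 and 23784 at 48 h. No infested array reached a 0 h array. The log2 changes were -0.72 and -0.66 in TXGBE273 and -0.92 and -0.87 in TXGBE281 (SE 0.087), but under quantile normalization the resistant changes were -0.12 and -0.0028, with limma adjusted p of 0.297 and 0.985.

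For 219.S1_x_at the resistant arrays read 53610, 60686 and 57799 at 0 h, 39581, 36528 and 31921 at 24 h, and 39055, 38272.5 and 34233 at 48 h. The susceptible arrays read 55993, 49881 and 50180 at 0 h, 34216, 33876 and 32900 at 24 h, and 33530, 29937 and 32480 at 48 h. The 0 h arrays again stood above all others. On the deposited scale the log2 changes were -0.68 and -0.63 in TXGBE273 and -0.63 and -0.70 in TXGBE281 (SE 0.094), but under quantile normalization they were -0.022, 0.050, -0.061 and -0.035, none of them called.

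Of the 3 probe sets with means between 1000 and 10000, 2 fell. For 152.S1_at the resistant arrays read 2312, 2177 and 2161 at 0 h, 1116, 1248 and 1100 at 24 h, and 1229, 1089 and 1056 at 48 h. The susceptible arrays read 2334, 2385 and 2091 at 0 h, 1296, 891 and 909 at 24 h, and 1014, 1142 and 981 at 48 h. The 0 h and infested arrays were far apart in both lines, and the 24 h and 48 h arrays overlapped. The log2 changes were -0.93 and -0.97 in TXGBE273 and -1.14 and -1.11 in TXGBE281 (SE 0.13).

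For 102.S1_at the resistant arrays read 2208, 2042 and 2164 at 0 h, 1199, 776 and 1446 at 24 h, and 1513, 956 and 920 at 48 h. The susceptible arrays read 2238, 1748 and 2176 at 0 h, 742, 942 and 964 at 24 h, and 1243, 920 and 667 at 48 h. The infested arrays were more spread out than those of 152.S1_at, yet none reached the 0 h arrays. The log2 changes were -0.94 and -0.95 in TXGBE273 and -1.20 and -1.15 in TXGBE281 (SE 0.23).

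Among the 8 brighter probe sets, 18.S1_at went the other way. In TXGBE273 its signal was 1282, 1473 and 1148 at 0 h, 2403, 2508 and 2707 at 24 h, and 2100, 2100 and 2029 at 48 h. In TXGBE281 it was 1203, 1361 and 1196 at 0 h, 2334, 2185 and 2320 at 24 h, and 2035, 2027 and 1859 at 48 h. All infested arrays were above all 0 h arrays, and in each line the 48 h arrays lay below the 24 h arrays without overlap.

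The group means of 18.S1_at were 1301 ± 163 (SD, n = 3), 2540 ± 154 and 2076 ± 40.8 in TXGBE273, and 1253 ± 93.5, 2279 ± 82.2 and 1974 ± 99.4 in TXGBE281. The log2 change from 0 h in TXGBE273 was 0.96 ± 0.10 (SE; limma adjusted p = 2.39e-07) at 24 h and 0.67 (adjusted p = 1.81e-05) at 48 h. In TXGBE281 it was 0.86 (adjusted p = 8.91e-07) and 0.65 (adjusted p = 2.28e-05). The differences between 48 h and 24 h, -0.29 in TXGBE273 and -0.21 in TXGBE281, were not called (limma adjusted p = 0.111 and 0.241). No difference between the lines was called in this probe set at any time. The difference between the lines' changes was 0.11 ± 0.14 at 24 h and 0.025 ± 0.14 at 48 h (SE; limma adjusted p = 0.843 and 0.957).

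Among the dimmer probe sets, 137.S1_at fell. In TXGBE273 its signal was 367, 410 and 393 at 0 h, 113, 180 and 148 at 24 h, and 122, 133 and 185 at 48 h. In TXGBE281 it was 233, 297 and 294 at 0 h, 78.1, 159 and 54.2 at 24 h, and 139, 176 and 183 at 48 h. The infested arrays were below the 0 h arrays in all 4 comparisons. The log2 change was -1.34 ± 0.28 and -1.34 in TXGBE273 and -1.46 in TXGBE281 at 24 h (limma adjusted p = 0.000919, 0.000844 and 0.000347). At 48 h in TXGBE281 it was -0.68 and was not called (limma adjusted p = 0.0693).

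The other dim probe set that was called, 24.A1_s_at, is also the one with the letter A. In TXGBE281 its signal was 6.67, 6.28 and 3.40 at 0 h, 113, 110 and 202 at 24 h, and 65.0, 140 and 259 at 48 h. In TXGBE273 it was 36.3, 4.32 and 11.6 at 0 h, 33.8, 29.3 and 6.99 at 24 h, and 55.7, 38.5 and 59.5 at 48 h. The susceptible infested arrays and the resistant 48 h arrays stood clear of their 0 h arrays, whereas the resistant 24 h arrays overlapped theirs.

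The log2 change of 24.A1_s_at was 2.83 ± 0.49 (SE; limma adjusted p = 1e-04) at 24 h and 2.82 (adjusted p = 8.4e-05) at 48 h in TXGBE281. In TXGBE273 it was 0.27 (adjusted p = 0.729) and 1.11 (adjusted p = 0.09). The 48 h rise in TXGBE273 was called under quantile normalization, under median centring and on the hybridisation control scale. On the last of these it was 1.34 (limma adjusted p = 0.0487). This probe set exceeded the 40th percentile on 7 of 18 arrays, in 3 of the 6 groups, so it was tested because of the groups where it was high. The difference between the lines' changes was -2.56 ± 0.69 at 24 h and -1.72 ± 0.69 at 48 h (SE), and neither was called (limma adjusted p = 0.0726 and 0.184). The offset of 16 exceeds its susceptible 0 h signals, so these log2 changes understate the ratio of the signals.

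The other 17 tested probe sets were called in no comparison: 4.S1_at, 6.S1_at, 13.S1_at, 43.S1_at, 46.S1_at, 48.S1_at, 49.S1_at, 50.S1_at, 79.S1_x_at, 83.S1_at, 91.S1_at, 106.S1_x_at, 122.S1_at, 147.S1_at, 147.S1_x_at, 149.S1_at and 201.S1_at. Their signals lay between 1.01 and 619, and their median signals between 31.2 and 386. Their log2 changes from 0 h lay between -1.03 and 0.57 at 24 h and between -1.39 and 0.48 at 48 h in TXGBE273, and between -1.08 and 0.63 and between -1.001 and 0.55 in TXGBE281. Of these 17, 6.S1_at had the highest median signal. Its arrays read 239, 400 and 323 at 0 h, 560, 508 and 372 at 24 h, and 619, 441 and 318 at 48 h in TXGBE273, and between 202 and 530 in TXGBE281. Its log2 change was 0.57 and 0.48 in TXGBE273 and 0.12 and 0.13 in TXGBE281, with an SE of 0.31. Next came 91.S1_at, with signals between 112 and 231, and 46.S1_at, between 51.7 and 252. For 6.S1_at the arrays of every infested group overlapped those of 0 h, so no change was detectable at this spread.

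Some of the uncalled ones came close to the threshold. At 48 h in TXGBE273, 43.S1_at differed by -1.23 ± 0.48 (SE; limma adjusted p = 0.0576) and 149.S1_at by -1.39 ± 0.58 (adjusted p = 0.0735). At 48 h in TXGBE281, 106.S1_x_at differed by -1.001 ± 0.42 (adjusted p = 0.0718). The susceptible 24 h difference of 13.S1_at was -1.08 ± 0.47 (adjusted p = 0.0843). An unadjusted p under 0.05 was reached by 1, 4, 3 and 3 of the 19 dimmer probe sets in the 4 comparisons with 0 h.

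The 6 probe sets that share a number were all dim, and none was called. The number 147 had group means of 22.4 to 72.3 for 147.S1_at and 46.1 to 102 for 147.S1_x_at. For the number 201, only 201.S1_at was tested, with group means from 27.1 to 74.5. Neither probe set of the number 54 was tested, with group means of 0.995 to 18.4 for 54.S1_at and 2.49 to 11.7 for 54.S1_x_at.

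Between 24 h and 48 h few differences were called. In TXGBE273 0 of the 27 were called, against 5.17% of all probe sets tested, and the arrays did not overlap in 6, against 22.4%. An unadjusted p under 0.05 was reached by 18.S1_at, with a log2 change of -0.29, and by 215.S1_s_at, with 0.43. The share of all probe sets at that unadjusted limit is not given here, so these are not read as a result. In TXGBE281 1 was called, 176.S1_x_at, which was higher at 48 h, against 4.82% of all probe sets called higher. Its change was 0.33 ± 0.10 (SE; limma adjusted p = 0.0424), and it was among 3 of the 27 whose arrays did not overlap, against 28.9%. Without susceptible 24 h replicate 3, whose signal of 11554 was the lowest of all 18 arrays, it was 0.19 with an adjusted p of 0.241. The call was also lost without susceptible 48 h replicate 1, 2 or 3 (limma adjusted p = 0.0757, 0.112 and 0.14). In the fit of the compared groups alone the adjusted p was 0.148. Median centring, no filter and no variance trend each lost the call too.

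Before infestation no difference between the lines was called in the 27: 0 passed at 0 h, against 0.0216% of all probe sets tested, and the arrays of the lines did not overlap in 3, against 10.5%. An unadjusted p under 0.05 was reached by 13.S1_at, with a difference of -1.15, and by 149.S1_at, with 1.65. The share of all probe sets at that unadjusted limit is not given here, so these are not read as a result. Among the 8 brighter probe sets the log2 difference, resistant minus susceptible, lay between -0.032 and 0.18.

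At 24 h, 3 of the 27 differed between the lines. The signals of 176.S1_x_at and 215.S1_s_at were higher in TXGBE273, against 2.38% of all probe sets tested, and that of 24.A1_s_at was lower, against 2.77%. The difference was 0.54 ± 0.10 (SE; limma adjusted p = 0.00183) for 176.S1_x_at, 0.76 ± 0.18 (adjusted p = 0.0131) for 215.S1_s_at and -2.03 ± 0.49 (adjusted p = 0.0156) for 24.A1_s_at. In all 3 the arrays of the lines did not overlap, as in 9 of the 27 and 20.3% of all probe sets. In the fit of the compared groups alone, the calls for 176.S1_x_at and 215.S1_s_at were lost (limma adjusted p = 0.0542 and 0.0745). Without the variance trend, that for 215.S1_s_at was lost (adjusted p = 0.0718). The call for 215.S1_s_at was also lost without resistant replicate 2 or 3 or without susceptible replicate 1 or 3. The differences were then 0.63 to 0.70, with adjusted p of 0.0688 to 0.0975. The call for 24.A1_s_at was lost without resistant replicate 3 (-1.68) or susceptible replicate 3 (-1.77). It was tested because of the groups where it was high, susceptible 24 h among them, so its call is not an independent result.

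At 48 h, 215.S1_s_at alone was called, higher in TXGBE273 by 1.06 ± 0.18 (SE; limma adjusted p = 0.000376), against 6.69% of all probe sets called higher. The arrays of the lines did not overlap in 6 of the 27, against 29.8%. Differences of the same sign and smaller size were seen in 60.S1_x_at, with 0.32 (limma adjusted p = 0.0744), and in 205.S1_x_at, with 0.27 (adjusted p = 0.0532). That of 176.S1_x_at was 0.014 (adjusted p = 0.963). All 8 brighter probe sets had differences above 0 at both later times, from 0.092 to 0.76 at 24 h and from 0.014 to 1.06 at 48 h. The 8 share the scale of each array, so their common sign is not 8 separate results. On the deposited scale the median difference of all probe sets tested was 0.050 at 24 h and 0.032 at 48 h. On the hybridisation control scale it was 0.19 and -0.24, and the 48 h difference of 215.S1_s_at was 0.76.

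The difference between the lines' changes from 0 h, called line by infestation here, was tested directly. At 24 h 0 of the 27 were called, against 1.6% of all probe sets tested. An unadjusted p under 0.05 was reached by 4: 13.S1_at, 24.A1_s_at, 176.S1_x_at and 215.S1_s_at. The share of all probe sets at that unadjusted limit is not given here, so these are not read as a result. At 48 h 1 was called, against 2.53% of all probe sets called higher. This was 215.S1_s_at, whose fall was smaller in TXGBE273 by 0.996 ± 0.25 (SE; limma adjusted p = 0.0248). Its value at 24 h was 0.70 ± 0.25 (adjusted p = 0.231).

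The 48 h call of 215.S1_s_at was close to its limit. It was lost in 7 of 12 fits that left out a single array: without resistant 0 h replicate 1, resistant 48 h replicate 2 or 3, susceptible 0 h replicate 1 or 3, or susceptible 48 h replicate 2 or 3. Over the 12 fits the value lay between 0.87 and 1.19 and the adjusted p between 0.00623 and 0.0786. On the scale of the hybridisation controls it was 0.78 with an adjusted p of 0.166.

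Several array-wide quantities moved with the time groups in the same direction as the bright probe sets that fell, and opposite to 18.S1_at. The 99.9th percentile of signal averaged 54619 and 49813 in the resistant and susceptible 0 h groups and 31345 to 35502 in the 4 infested groups. The ubiquitin control on the array averaged 28684 and 26475 at 0 h and 14177 to 16584 later. The 18S ribosomal RNA control averaged 392 and 319 at 0 h and 83.3 to 200 later. The ratio of the ubiquitin control's 3′ to 5′ signal stayed at 0.446 to 0.478 in all group means. That of the sucrose synthase control ranged from 14.4 to 20.1 in group means, and after infestation its arrays did not overlap between the lines. At 24 h the ratio was 18.7 to 19.9 on the resistant arrays and 12.3 to 18.5 on the susceptible ones. At 48 h it was 16.9 to 23.4 and 13.7 to 15.8. At 0 h the arrays of the lines overlapped. Whether this ratio bears on the differences between the lines was not tested. Trimmed-mean scaling leaves a narrowing of the upper range, as seen in the 99.9th percentile, in place, while quantile normalization removes it.

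Under quantile normalization 6, 6, 7 and 6 of the 27 were called lower in the 4 comparisons with 0 h, and 1, 2, 2 and 2 higher. Of all probe sets tested, 13.7%, 15.3%, 14.6% and 17.5% were called lower on that scale and 17.9%, 18.1%, 18.1% and 19.0% higher. The calls lost were those of 205.S1_x_at in TXGBE273 and of 219.S1_x_at in both lines, at both times. The changes of 215.S1_s_at, 176.S1_x_at, 60.S1_x_at, 102.S1_at and 152.S1_at were called lower in all 4, and that of 18.S1_at higher in all 4.

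A scale set by the bacterial hybridisation controls, which are added in fixed amounts, moved the whole distribution. On it the median log2 change of all probe sets tested was 0.58, 0.39, 0.32 and 0.57, in place of the values near 0 on the deposited scale. The 27 then split into 2 higher and 1 lower, 3 higher and 2 lower, 2 higher and 7 lower, and 3 higher and 1 lower. Of all probe sets tested, 37.5%, 30.1%, 27.3% and 37.8% were called higher on this scale and 4.95%, 6.86%, 7.93% and 7.63% lower. The change of 215.S1_s_at was called lower in all 4, at -0.98, -0.71, -1.91 and -1.49, and that of 18.S1_at was called higher in all 4, at 1.65, 1.20, 1.31 and 1.39. Of the other 6 bright probe sets that fell, 5 were still called lower at 24 h in TXGBE281. In the other comparisons with 0 h, 176.S1_x_at at 48 h in TXGBE273, at -0.58, was the only such call. The change of 219.S1_x_at was 0.023 at 24 h in TXGBE273 and 0.048 at 48 h in TXGBE281. On this scale 6.S1_at was called higher in all but the TXGBE281 24 h comparison, by 0.84 to 1.23, although it was not called on the deposited scale. The falls given above are therefore relative to the common level of each array.

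The rbcL probe sets give the nearest comparison. Of the 28 with that annotation, 24 lie in the same numbered series, and 20 of the 28 were tested. In the same 4 comparisons 0 of the 20 were higher and 7, 9, 11 and 10 lower. Over all probe sets tested, 17.6%, 17.4%, 17.1% and 17.8% were called higher and 14.5%, 16.3%, 16.3% and 19.1% lower. In all 4 comparisons 1 of the 27 without annotation, 18.S1_at, was higher, and 0 of the 20, against 9.44% of all probe sets tested. The difference between the lists was not tested. On the deposited scale the brightest rbcL probe set, Ta.24976.1.S1_x_at, changed by -0.65, -0.60, -0.50 and -0.58. On that scale 219.S1_x_at changed by -0.68, -0.63, -0.63 and -0.70, but under quantile normalization by -0.022, 0.050, -0.061 and -0.035, none of them called. The rbcL probe sets are given here on the deposited scale only. Whether their falls hold under quantile normalization is therefore not shown. The largest fall among the rbcL probe sets, that of TaAffx.128414.72.S1_at, was -2.69, -2.74, -3.88 and -3.30 on the deposited scale. Beside it, 215.S1_s_at changed by -1.67, -1.24, -2.37 and -2.24.

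The other plastid gene that the annotation names, atpA, which encodes a subunit of the chloroplast ATP synthase, had 1 probe set and was not tested, with signals from 3.22 to 36.1. Nuclear genes of photosynthesis and carbon fixation had 9 probe sets, all tested, of which 7 fell in each of the 4 comparisons and 1, 1, 0 and 0 rose. Those called lower include Ta.85.1.S1_at of PsbP, a protein of the oxygen-evolving complex of photosystem II, which changed by -0.94, -1.05, -1.03 and -1.45. They also include PRK, the phosphoribulokinase of the Calvin cycle, with -1.76, -1.73, -2.07 and -2.34. Values of these genes on the other scales are not given here. The 7 that fell had 0 h group means between 18637 and 73779. In bulk leaf RNA, fewer cells of a type and less RNA per cell cannot be told apart.

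Within groups the bright probe sets varied together only in part. Deviations of log2 signal from the group means over the 18 arrays gave 28 pairs among the 8 brighter ones, with Pearson r between -0.49 and 0.86 and a median of 0.11. The highest was 0.86, between 205.S1_x_at and 60.S1_x_at. Against the 4 rbcL probe sets with means above 1000, the 32 pairs had r between -0.56 and 0.75 with a median of 0.18. The highest were 0.75 and 0.72, between 219.S1_x_at and the rbcL probe sets Ta.24976.1.S1_x_at and TaAffx.128414.1.A1_x_at, whereas with the other 2, TaAffx.128414.181.S1_at and TaAffx.128414.72.S1_at, 219.S1_x_at had r of -0.24 and -0.29. The arrays share RNA, scale and, for _x_at probe sets, possibly probe targets, so these values are descriptions and carry no p.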

How the data were processed

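Leaf RNA of 18 samples was hybridised as biotin-labelled cRNA to 1 array each, per the labels' protocols. The deposited values are probe-set intensities on a linear scale; MAS5 is named in the submitters' processing notes, with no version, and no source used here gives detection calls. Every array in the deposited table has a mean of 500.1 with 2% of probe sets trimmed at each end.

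The 111 control probe sets were left out. Signals were tested as log2(signal + 16) with limma 3.58.1 in R 4.3.3, in a fit of the 6 groups with a variance trend, for 11 comparisons, each adjusted by the Benjamini-Hochberg method over the 46251 probe sets above their array's 40th percentile on at least 3 arrays. The offset understates changes of dim probe sets. The steps were tested on simulated data. The number of arrays limits the precision. All 18 replicate pairs differed in value (r from 0.936 to 0.963).

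The platform annotation is dated and names a symbol for 1273 probe sets; LOC100049018 was read as rbcL through the RefSeq synonym. No coordinates are given, since the study names no assembly, and probe sequences were not used here. Any of the 35 could be named; those with the 5 highest or lowest means, and up to 5 called per comparison, are given in full. The members and lists were chosen with earlier results of these data known. The alternatives were quantile normalization, median centring, hybridisation controls (27 probe sets), offsets of 1 and 64, no filter, a 60th percentile filter, no variance trend, the compared groups only, a replicate block and each array left out.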

Additional observations from a re-analysis of the deposited data

Results flagged for a closer look

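The change of 215.S1_s_at from 0 h to 48 h differed between the lines by the line by infestation term of the limma fit. Its fall from 0 h was smaller in TXGBE273 by 0.996 ± 0.25 on the log2 scale (adjusted p = 0.0248), with changes of -1.24 in TXGBE273, the resistant line, and -2.24 in TXGBE281, the susceptible line. All 3 resistant 48 h arrays, 18012 to 23504, were above all 3 susceptible ones, 8543 to 13364. On the hybridisation control scale the difference was 0.78 (adjusted p = 0.166). Over the 12 fits that left out an array the adjusted p lay between 0.00623 and 0.0786.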

How the results depend on the processing

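The 43 called changes gave 691 values under the alternatives. Of these, 639 kept direction and call, 49 lost the call and 3 turned, all of 219.S1_x_at: 0.0232 (resistant 24 h) and 0.0484 (susceptible 48 h) with hybridisation controls, and 0.0503 (resistant 48 h) with quantile normalization. Hybridisation controls gave 3 calls in place of 9 at resistant 24 h, 5 in place of 9 at resistant 48 h, 4 in place of 9 at susceptible 48 h, 2 in place of 1 at susceptible 48 h minus 24 h, and 0 in place of 1 for line by infestation at 48 h. Susceptible 48 h minus 24 h gave 0 with median centring, no filter, no variance trend and the compared groups only. Resistant minus susceptible gave 1 in place of 3 at 24 h with the compared groups only, and at 48 h 2 in place of 1 with quantile normalization, an offset of 64 or the 60th percentile filter. Line by infestation at 48 h gave 0 without the variance trend. The 60th percentile filter did not keep 24.A1_s_at, so the calls of that probe set have no value under it. Leaving out an array gave 0 to 2 for susceptible 48 h minus 24 h, 1 to 4 and 1 to 3 for the lines at 24 h and 48 h, and 0 to 1 and 0 to 2 for line by infestation at 24 h and 48 h; resistant 48 h minus 0 h gave 9 to 11. For the lines at 24 h the lowest came without resistant or susceptible replicate 3, and at 48 h the 3 came without susceptible replicate 1.

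Same-numbered samples of different groups did not deviate together: 45 correlations lay between -0.0397 and 0.0615, with 0 above 0.1. With the number as a replicate block the 43 calls all held, and resistant minus susceptible at 48 h gave 3 in place of 1. The 19 dimmer probe sets tested had standard errors of 0.28 to 0.76 for a log2 change, and the cause of the differences between scales was not tested.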
